A study of Mus musculus with 6 samples.

Results

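The genes described here are 33 mouse genes known as direct targets of the transcription factor p53 that lie outside the apoptosis, death receptor and CDK inhibitor groups. They were taken by symbol from a table of 32061 genes counted in isolated hepatocytes, and all 33 were found in it. Of these, 32 had enough counts to be tested, and Ptprv did not. The senescent group is 3 samples from mice with the AhCre transgene and a loxP-flanked Mdm2 gene on both chromosomes (AhCre+Mdm2fl/fl), and the healthy group is 3 samples from AhCre- mice. AhCre is a Cre recombinase under a promoter switched on by aryl hydrocarbon receptor ligands, and both groups received β-naphthoflavone, such a ligand, at 20 mg/kg for 48 h by injection into the peritoneum. All mice were 10 to 12 weeks old. The labels do not give the Mdm2 alleles of the AhCre- mice, so presence of Cre and deletion of Mdm2 cannot be told apart. Whether the 3 samples of a group come from 3 animals is not stated, so the p-values speak of the spread among these libraries, which may be technical.

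p53 is a DNA-binding protein that is kept scarce by the ubiquitin ligase Mdm2. When it accumulates, it binds pairs of a conserved decamer near its target genes and raises their transcription. Its best known targets stop the cell cycle or start apoptosis, and the genes here cover its other outputs: spindle and kinase proteins, regulators of AKT and of caspases, secreted and surface signals, metabolic enzymes and ubiquitin ligase parts.

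RefSeq promoter windows (GRCm38.p6, 250 bases before to 50 after an annotated start) were at hand for 28 of the members, in 41 windows. The p53 consensus decamer, which reads the same on both strands, was found without mismatch in 9 of the 28 members (32.1%), against 9.55% of all 27025 genes in the same table. Paired decamers with no spacer were found in 4 of the 28 members (14.3%), against 0.673% of all genes, allowing up to 3 mismatches in the 20 letters and none in the central 4 letters of either decamer. With the 250 bases before the start alone, the shares were 21.4% of members against 8.2% of genes for the decamer and 10.7% against 0.566% for the paired form. On either strand, TATAAA was in 21.4% of members against 15.7% of genes, CCAAT in 57.1% against 41.1%, and TTTGAA in 10.7% against 20.2%. The members' windows were richer in G and C, with a median of 62.3% against 52.7% over all windows. Such matches describe letters in a short window and not binding, and sites elsewhere in a gene were not searched. The members had been picked as p53 targets, so these shares describe them and are not independent evidence. The 4 paired sites are shown because they belong to members that all rose, with capitals marking letters that match the consensus.
Gtse1: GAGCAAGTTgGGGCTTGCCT
Rps27l: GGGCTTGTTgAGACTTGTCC
Ckap2: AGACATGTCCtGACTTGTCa
Aen: GGGCTTGTCCGGGCAAGgag
The Gtse1 site began 1 base before the later of its annotated starts, at chr15:85859945-85859964, and had 1 mismatch. The Rps27l site began 117 bases before the later of its annotated starts, at chr9:66946296-66946315, and also had 1 mismatch. The Ckap2 site, with 2 mismatches, began 203 bases before the start on the minus strand, at chr8:22186003-22186022. The Aen site, with 3, lay at chr7:78895937-78895956, which is likewise 121 bases before the later of its starts. For Gtse1 and Rps27l the site lies downstream of the earlier start, outside that start's window.

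The whole windows of these 4 genes follow, 5′ to 3′ along the gene, with the paired site in capitals, to show where it lies relative to the start. They are chr15:85859696-85859995 (plus strand), chr9:66946163-66946462 (plus), chr8:22185770-22186069 (minus) and chr7:78895808-78896107 (plus).
Gtse1: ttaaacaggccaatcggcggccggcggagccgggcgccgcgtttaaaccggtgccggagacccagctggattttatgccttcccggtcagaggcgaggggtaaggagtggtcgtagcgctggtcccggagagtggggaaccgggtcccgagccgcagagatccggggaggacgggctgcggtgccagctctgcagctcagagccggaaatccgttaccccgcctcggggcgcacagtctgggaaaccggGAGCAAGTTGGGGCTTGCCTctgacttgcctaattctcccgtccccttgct
Rps27l: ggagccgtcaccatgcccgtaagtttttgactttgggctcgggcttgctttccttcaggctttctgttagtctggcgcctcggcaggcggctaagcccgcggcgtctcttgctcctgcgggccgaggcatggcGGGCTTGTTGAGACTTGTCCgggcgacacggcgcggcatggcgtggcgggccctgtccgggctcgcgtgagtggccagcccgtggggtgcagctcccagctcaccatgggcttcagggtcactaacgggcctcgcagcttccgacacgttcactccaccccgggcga
Ckap2: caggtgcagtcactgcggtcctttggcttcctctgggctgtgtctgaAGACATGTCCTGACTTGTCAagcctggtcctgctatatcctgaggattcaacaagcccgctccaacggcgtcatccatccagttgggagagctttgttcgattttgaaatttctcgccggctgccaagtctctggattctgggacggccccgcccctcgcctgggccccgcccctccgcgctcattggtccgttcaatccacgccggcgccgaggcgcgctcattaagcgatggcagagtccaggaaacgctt
Aen: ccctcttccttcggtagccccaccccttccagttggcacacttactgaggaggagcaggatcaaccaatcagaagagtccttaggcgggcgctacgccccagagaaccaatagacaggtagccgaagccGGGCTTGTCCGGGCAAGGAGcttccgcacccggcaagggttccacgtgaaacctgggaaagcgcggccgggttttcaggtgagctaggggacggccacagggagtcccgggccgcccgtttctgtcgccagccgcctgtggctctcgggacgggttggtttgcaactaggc
Single decamers without mismatch were found in a further 5 members. They read GGGCTTGTCT in Inka2, GGGCATGCTC in Rap2b, GGGCATGCCC in Ei24, GGGCTTGTTT in Pml and GGGCTTGTTT in Abhd4, with all letters in capitals because all match.

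**Figure D1:**
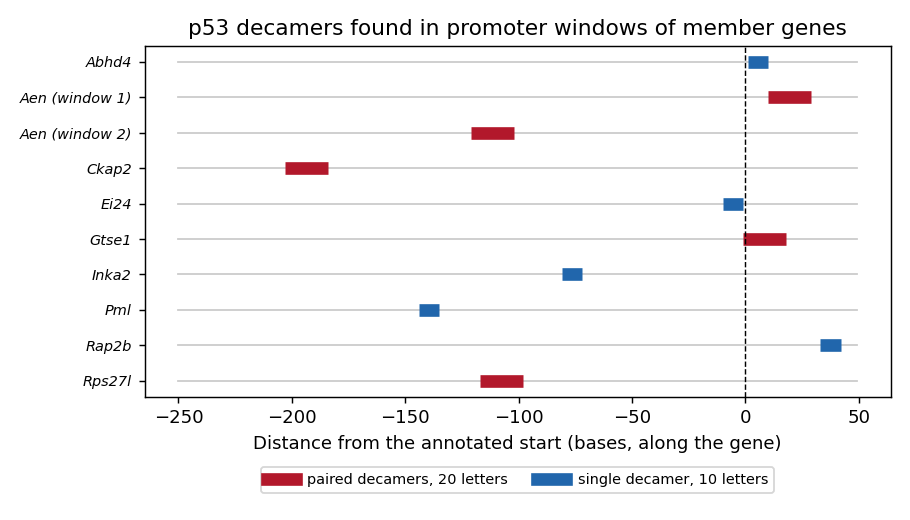
Position of p53 decamers in promoter windows of 9 member genes, in bases from the annotated start of that window along the gene (dashed line at 0); grey lines are the windows, red bars paired decamers and blue bars single ones. The paired sites begin between 203 bases before the start (Ckap2) and 10 bases after it (the first window of Aen). Windows with a paired site show that site only, so a separate decamer of Rps27l (GGGCTTGCTT, 210 bases before the start) is not drawn.

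The senescent libraries held 29992707 to 32210591 counts, and the healthy ones 28799392 to 33267299. Levels below are CPM (each gene's share of its library's reads after TMM scaling), given per library or as mean ± SD over the 3 libraries of a group. Log2 fold changes are of senescent over healthy, with their SE, and come from edgeR's quasi-likelihood test with p adjusted by Benjamini-Hochberg over all 12949 tested genes. In that test 41.1% of all genes were called at an adjusted p under 0.05. Mdm2, the targeted gene, had 464, 463 and 501 CPM in the senescent libraries, against 19.0, 22.7 and 22.0 CPM in the healthy ones. Mdm2 is itself a p53 target, and the table gives 1 value for the whole gene, so it does not check the deletion. Cdkn1a, the p53 target that encodes the CDK inhibitor p21, had 653, 773 and 724 CPM in senescent libraries and 21.3, 31.0 and 54.3 CPM in healthy ones. Hepatocyte markers were the most abundant of the cell type lists in every library. Of the 7, 6 (Ttr, Serpina1e, Tat, Asgr1, Alb, Apoa1) were lower in senescent libraries, and Cps1 did not pass (edgeR adjusted p = 0.69). Scaled by total library size instead, 4 were lower, and Asgr1 and Apoa1 lost their calls (edgeR adjusted p = 0.15 and 0.08). Without senescent replicate 3, 3 were lower. All 7 together summed to 64043 ± 6378 CPM in senescent and 111821 ± 9959 CPM in healthy libraries. Macrophage markers (12 genes, of which Vsig4 and Cd68 rose) summed to 241 to 488 CPM in senescent and 98.1 to 267 CPM in healthy libraries, and stellate and fibroblast markers (10 of 11 tested, of which Reln, Dcn, Col3a1, Col1a2 and Lum rose) to 25.2 to 39.3 CPM and 9.73 to 16.5 CPM. Endothelial markers (11 genes, of which Cdh5 and Stab1 rose) summed to 135 to 175 CPM in senescent and 113 to 143 CPM in healthy libraries. Cholangiocyte markers summed to 20.3 to 27.2 CPM in senescent and 15.7 to 23.8 CPM in healthy libraries, and of the 6 tested of 8 Krt19 (9.97-fold), Muc1 (4.06-fold) and Spp1 (3.22-fold) rose. Lymphocyte and neutrophil markers summed to 6.21 to 10.2 CPM in senescent and 1.8 to 5.12 CPM in healthy libraries, and of the 3 tested of 9 S100a9 (5.41-fold) and S100a8 (5.28-fold) rose. Acta2, Ly6g and Cd3e, with at most 5 counts in a library, were at or near 0 throughout. The part of these cell types in the results was not tested. In bulk RNA, fewer cells of a type and less RNA per cell cannot be told apart.

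Most of the members were higher in senescent hepatocytes. Of the 32 tested, 27 rose and 5 did not pass, whereas 20.4% of all tested genes rose. None fell, whether by edgeR, DESeq2 or limma-voom, while 20.7% of all tested genes fell in edgeR, and 0 members were lower at an unadjusted edgeR p under 0.05. Rises of at least 2-fold were found for 24 members and of at least 8-fold for 14, against 10.4% and 2.15% of all tested genes. The median log2 fold change of the tested members was 2.40, beside 0.01 over all tested genes. In 28 of the 32 every senescent library lay above every healthy one, an order found for 26.8% of all tested genes. Summed over all 33, the members took 5265 ± 159 CPM in senescent and 1269 ± 41.3 CPM in healthy libraries. The members had been picked as p53 targets, and a broader p53 list was already known to rise in these libraries, so the counts describe these genes and are not independent evidence.

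**Figure D2:**
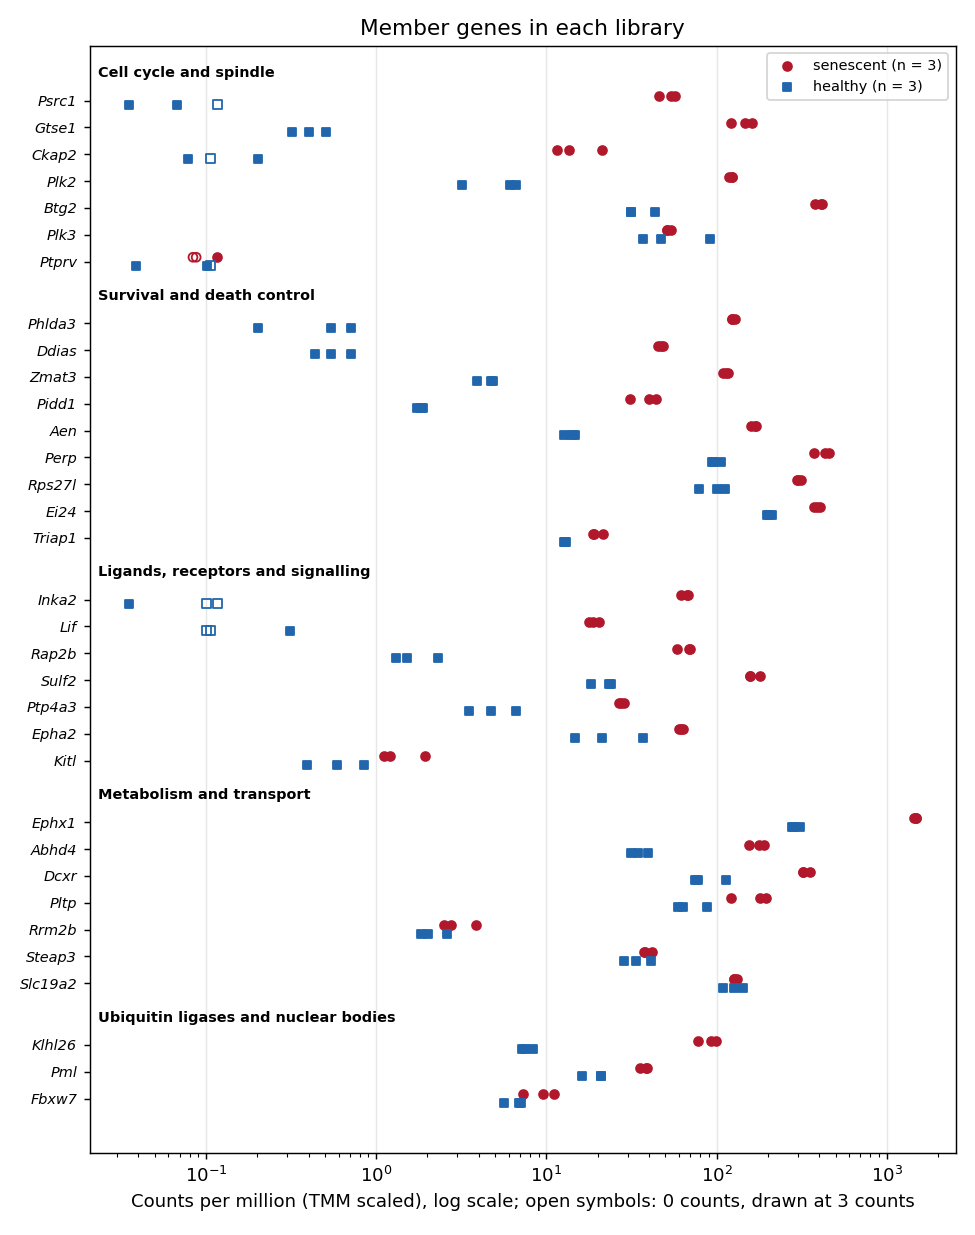
CPM of the 33 members in each of the 6 libraries on a log axis, grouped by role, with senescent libraries as red circles and healthy ones as blue squares; open symbols had 0 counts and are drawn at 3 counts. In 28 of the 32 tested genes the red and blue symbols do not overlap, with differences from a 5498-fold ratio of counts (Inka2) to 1.54-fold (Triap1) among those that rose.

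Among cell cycle and spindle genes, 5 of the 6 tested rose, all by at least 8-fold. Gtse1, Psrc1 and Ckap2, which act on microtubules and the spindle, were all under 1 CPM in every healthy library and above 10 CPM in every senescent one. Gtse1 (ENSMUSG00000022385; GRCm38 chromosome 15, 85859745 to 85876573), whose protein binds microtubules and p53, had 121, 146 and 160.5 CPM in senescent libraries and 0.404, 0.506 and 0.318 CPM in healthy ones, a log2 fold change of 8.44 ± 0.21 (edgeR adjusted p = 2.7e-07). Psrc1 (ENSMUSG00000068744; chromosome 3, 108383839 to 108388231), a spindle-associated protein gene, had 45.8, 57.1 and 54.3 CPM in senescent libraries and 0.0673, 0 and 0.0353 CPM in healthy ones. That is 5481 counts against 3, a ratio of 1459.8 with a 95% exact counting interval of 499 to 7081. Ckap2 (ENSMUSG00000037725; chromosome 8, 22168160 to 22185819), a cytoskeleton-associated spindle protein gene, had 11.6, 13.6 and 21.2 CPM in senescent libraries, against 0.202, 0.0778 and 0 CPM in healthy ones (log2 fold change 7.28 ± 0.51, edgeR adjusted p = 2.6e-05). Such intervals, and the floor of 3 counts, reflect counting error alone and leave out the spread between libraries. The intervals may be too narrow even for counting error, because PCR copies are not independent molecules. Fitted changes of genes this rare in the healthy group lean on few counts: without healthy replicate 1 the log2 fold change was 8.55 for Ckap2 and 11.18 for Psrc1, against 10.36 ± 0.30 with all libraries.

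The antiproliferative gene Btg2, a partner of the CCR4-NOT deadenylase, had 412, 416 and 380.5 CPM in senescent libraries and 31.3, 31.4 and 43.3 CPM in healthy ones, a log2 fold change of 3.51 ± 0.17 (edgeR adjusted p = 3e-06). Its relatives Btg3 and Tob1 rose as well (log2 fold changes 2.46 and 1.35), while Btg1 had 93.1 ± 13.6 CPM in senescent and 87.6 ± 19.9 CPM in healthy libraries (edgeR adjusted p = 0.72). Plk2 and Plk3 encode stress-responsive kinases of the polo family. Plk2 had 124, 123 and 119 CPM in senescent libraries and 6.63, 6.07 and 3.18 CPM in healthy ones, a log2 fold change of 4.52 ± 0.26 (edgeR adjusted p = 8.1e-06). Plk3 had 51.1, 51.3 and 54.3 CPM in senescent libraries and 37.1, 91.8 and 46.9 CPM in healthy ones, and the groups overlapped (log2 fold change -0.17 ± 0.29, edgeR adjusted p = 0.68). The sign for Plk3 rested on healthy replicate 2, the highest library, without which the log2 fold change was 0.31 (edgeR adjusted p = 0.14), and scaling by total library size gave 0.15. The difference between the changes of Plk2 and Plk3 was not tested. Other polo kinases also rose, Plk5 to 9.73 CPM in senescent libraries against 1.44 CPM in healthy ones and the mitotic Plk1 to 1.67 against 0.132 CPM. Ptprv, a receptor-type phosphatase gene, had 0, 0 and 4 counts in senescent libraries and 3, 1 and 0 in healthy ones, too few to test and at or near the floor of 3 counts per library.

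Gtse1, Psrc1 and Ckap2 are also known as genes of dividing cells, so they were set beside 20 genes of G2 and mitosis. All 19 of these that could be tested rose, among them Ttk and Hmmr, with a median log2 fold change of 3.00. The 20 genes together summed to 68.2, 29.3 and 64.8 CPM in senescent libraries and 11.6, 4.86 and 4.91 CPM in healthy ones, below Gtse1 alone in every senescent library and above it in every healthy one. Psrc1 was above that sum in senescent replicate 2 only, and Ckap2 was below it in every senescent library. Senescent replicate 2, the lowest for the mitosis list, was the highest for Psrc1 and in the middle for Gtse1 and Ckap2. Macrophage markers were also lowest in senescent replicate 2 within its group, at 241 CPM, against 377 and 488 CPM in replicates 1 and 3. So were endothelial (135 CPM), cholangiocyte (20.3 CPM) and lymphocyte and neutrophil markers (6.21 CPM). Stellate and fibroblast markers were lowest in senescent replicate 1 (25.2 CPM), and hepatocyte markers were highest in senescent replicate 2 (71070 CPM). The part of these cell types in the mitosis list was not tested.

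**Figure D3:**
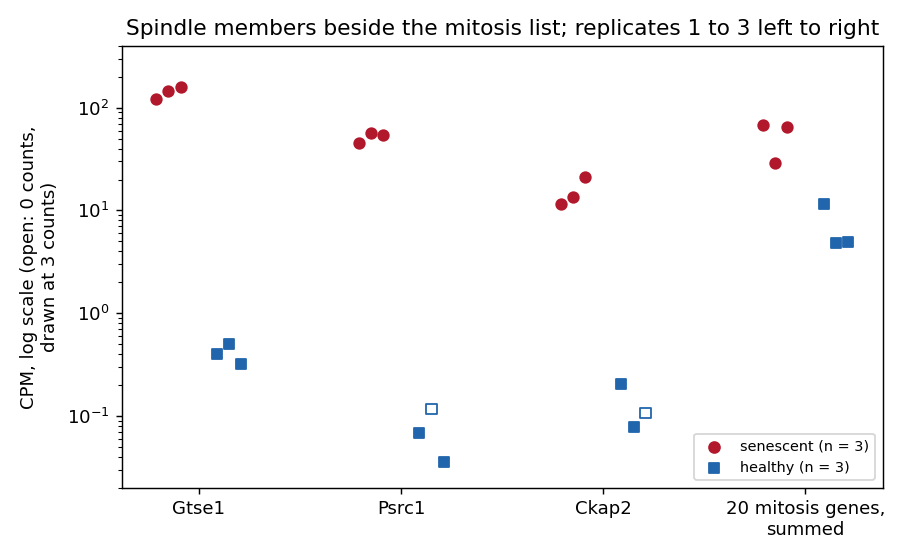
CPM per library on a log axis for Gtse1, Psrc1 and Ckap2 and for the sum of 20 G2 and mitosis genes, senescent as red circles and healthy as blue squares, replicates 1 to 3 from left to right; open squares had 0 counts and are drawn at 3 counts. Gtse1 lies at 121 to 160.5 CPM in senescent libraries, above the 29.3 to 68.2 CPM of the 20 summed genes.

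All 9 genes of survival and death control rose, 5 of them at least 8-fold. The strongest was Phlda3 (ENSMUSG00000041801; chromosome 1, 135766119 to 135769136), whose protein competes with the kinase AKT for membrane lipids. It had 123, 129 and 124 CPM in senescent libraries, against 0.202, 0.545 and 0.707 CPM in healthy ones (log2 fold change 8.01 ± 0.30, edgeR adjusted p = 8.7e-07). Its relative Phlda1 fell, to 42.9 ± 15.1 CPM in senescent libraries against 137 ± 65.3 CPM in healthy ones (edgeR adjusted p = 0.0068), and Akt1 also fell (log2 fold change -0.51), though not past the threshold when scaled by total library size (edgeR adjusted p = 0.19). Ddias, which encodes a suppressor of apoptosis after DNA damage, had 47.4, 45.2 and 48.7 CPM in senescent libraries and 0.438, 0.545 and 0.707 CPM in healthy ones, a log2 fold change of 6.38 ± 0.17 (edgeR adjusted p = 3.2e-07). Zmat3, an RNA-binding zinc finger protein gene, had 109.8, 114 and 116 CPM in senescent libraries, against 4.71, 3.93 and 4.84 CPM in healthy ones (log2 fold change 4.65 ± 0.13, edgeR adjusted p = 3.6e-07), while of its tested relatives Zmat1 fell (log2 fold change -1.17) and Zmat2 and Zmat5 did not pass. Aen, the gene of a nuclease that promotes apoptosis, had 169.5, 159 and 169 CPM in senescent libraries and 14.2, 12.6 and 14.7 CPM in healthy ones, a log2 fold change of 3.58 ± 0.12 (edgeR adjusted p = 5.4e-07). In each of these 4 genes the senescent libraries lay within a narrow band far above the healthy ones.

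The remaining 5 of this group covered a wider range of levels. Pidd1, the scaffold of the complex that activates caspase-2, rose to 38.3 ± 6.73 CPM in senescent libraries against 1.82 ± 0.0778 CPM in healthy ones, 21.0-fold. Its partners in that complex did not pass, with Casp2 at 3.81 CPM in senescent and 2.94 CPM in healthy libraries and Cradd at 16.5 and 14.9 CPM (edgeR adjusted p = 0.24 and 0.5). Perp, a desmosomal membrane protein gene, rose to 421 ± 44.1 CPM in senescent libraries against 98.3 ± 6.52 CPM in healthy ones. Rps27l rose to 302 ± 8.84 CPM against 97.3 ± 16.5 CPM, whereas Rps27, the ribosomal protein gene it is a paralog of, fell to 83.7 ± 3.02 CPM in senescent libraries against 119 ± 13.5 CPM in healthy ones (edgeR adjusted p = 0.0093), a call lost when libraries were scaled by total size (0.18). The changes of Ei24, an autophagy gene of the endoplasmic reticulum, and Triap1, which carries lipid between mitochondrial membranes, were 1.9-fold and 1.54-fold, the smallest rises among the 27 (edgeR adjusted p = 0.00044 and 0.0034). Prelid1, the lipid transfer partner of Triap1, had 102 CPM in senescent and 115 CPM in healthy libraries and did not pass (edgeR adjusted p = 0.28).

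**Figure D4:**
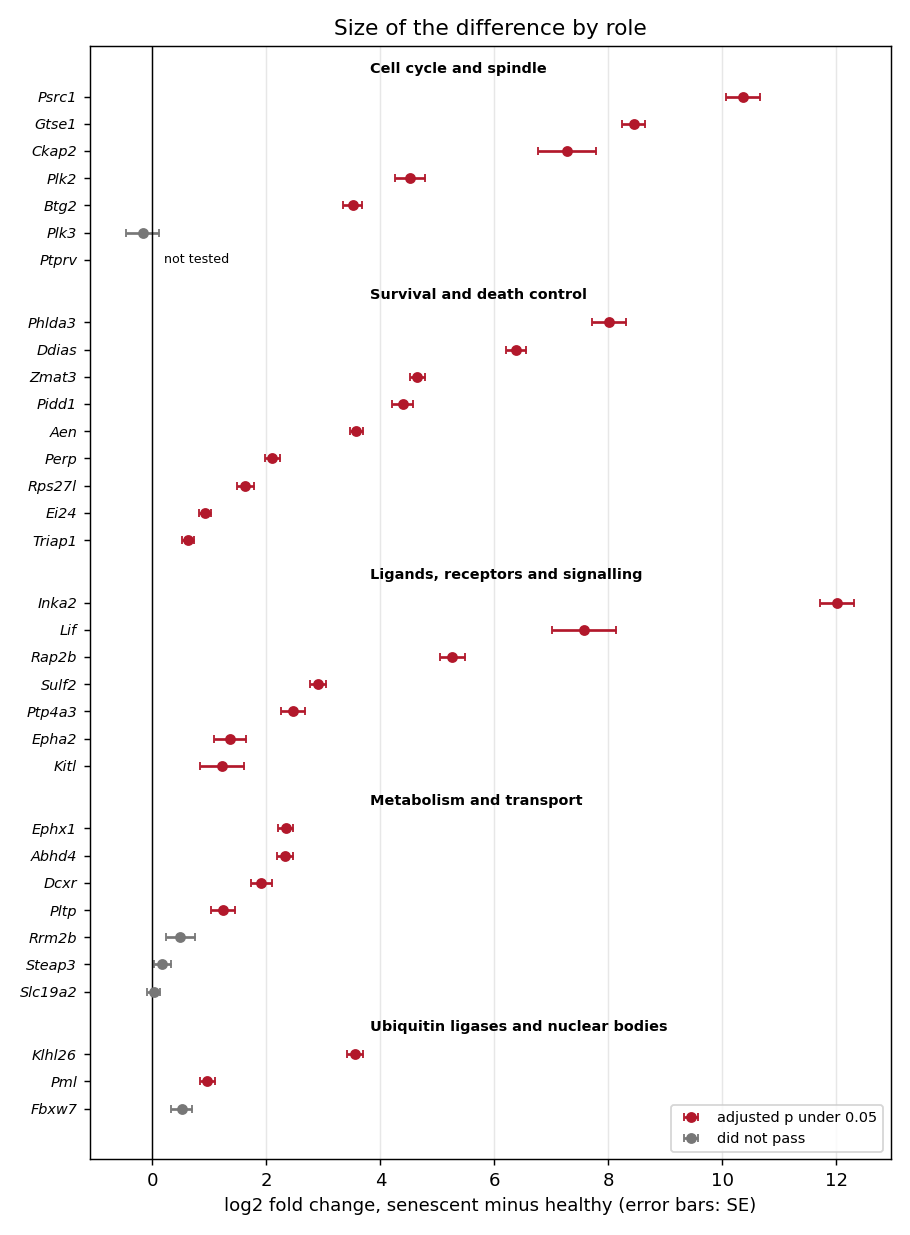
Log2 fold change, senescent minus healthy, with its SE for the 32 tested members by role; red points passed an adjusted p under 0.05 and grey points did not. The survival, signalling and cell cycle groups reach 8.01, 12.01 and 10.36, while no metabolic member exceeds 2.34.

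All 7 genes of ligands, receptors and signalling rose, each by at least 2-fold. Inka2 (ENSMUSG00000048458; chromosome 3, 105704599 to 105720842), which encodes an inhibitor of the kinase PAK4, had 62.2, 66.8 and 68.1 CPM in senescent libraries and 0, 0 and 0.0353 CPM in healthy ones. With 6881 counts against 1, the ratio was 5498 and its 95% exact counting interval 986 to 217191. Its relative Inka1 stayed under 1 CPM in both groups and was not tested, and Pak4 rose (log2 fold change 0.59, edgeR adjusted p = 0.01). Lif (ENSMUSG00000034394; chromosome 11, 4257557 to 4272514), a cytokine of the interleukin-6 family, had 17.7, 18.9 and 20.4 CPM in senescent libraries. In the healthy libraries Lif had 0, 8 and 0 counts, so its fitted log2 fold change of 7.57 ± 0.56 (edgeR adjusted p = 3.1e-05) rests on healthy replicate 2 for its size and was 12.27 without it. The receptor gene Lifr fell to 200.3 ± 16.9 CPM in senescent libraries against 288 ± 39.3 CPM in healthy ones (edgeR adjusted p = 0.018, or 0.22 when scaled by total library size), and the shared receptor subunit gene Il6st had 96.3 and 136 CPM (edgeR adjusted p = 0.054). Osmr, which pairs with Il6st in the oncostatin M receptor, rose to 10.4 CPM in senescent libraries against 1.37 CPM in healthy ones.

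Rap2b, a small GTPase gene of the Ras family, had 58.9, 69.1 and 69.9 CPM in senescent libraries and 2.32, 1.52 and 1.31 CPM in healthy ones, a log2 fold change of 5.26 ± 0.22 (edgeR adjusted p = 1.3e-06). An annotated gene on the opposite strand, B430305J03Rik, covers 54.5% of the exonic bases of Rap2b, and no source states whether the counting used strand. Of its close relatives, Rap2a rose to 57.0 CPM in senescent libraries against 15.5 CPM in healthy ones, and Rap2c had 32.7 and 32.5 CPM (edgeR adjusted p = 0.96). Sulf2, an extracellular enzyme gene that trims sulphate from heparan sulphate, had 158, 179 and 158 CPM in senescent libraries and 24.1, 23.4 and 18.3 CPM in healthy ones (log2 fold change 2.91 ± 0.14, edgeR adjusted p = 3.6e-06). Ptp4a3, a phosphatase gene, rose 5.54-fold to 27.4 ± 0.848 CPM in senescent libraries, against 4.95 ± 1.58 CPM in healthy ones. Its relative Ptp4a1 rose as well, to 11.1 CPM in senescent libraries against 2.98 CPM in healthy ones (edgeR adjusted p = 0.0061), while Ptp4a2 had 104 and 103 CPM. Epha2, a receptor tyrosine kinase gene, rose to 62.1 ± 1.75 CPM in senescent libraries against 24.3 ± 11.3 CPM in healthy ones, and Efna1, a ligand of that receptor, fell to 17.9 ± 5.52 CPM against 45.1 ± 7.25 CPM. Kitl, the ligand of the receptor Kit, was the rarest member to pass, at 1.41 ± 0.456 CPM in senescent and 0.605 ± 0.227 CPM in healthy libraries (edgeR adjusted p = 0.035). The call of Kitl was lost without senescent replicate 3 (edgeR adjusted p = 0.12), healthy replicate 2 (0.092) or healthy replicate 3 (0.087). Of the stellate and fibroblast markers 5 of 10 tested rose in the same comparison (2 without senescent replicate 3, and 3 without healthy replicate 1 or 3), and their part in the rises of these ligands and receptors was not tested.

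The metabolism and transport group was the most divided, with 4 of 7 rising and 3 not passing. Ephx1 (ENSMUSG00000038776; chromosome 1, 180976210 to 181020904), the microsomal epoxide hydrolase gene, was the most abundant member. It had 1489, 1481 and 1439 CPM in senescent libraries and 308, 278 and 287 CPM in healthy ones (log2 fold change 2.34 ± 0.13, edgeR adjusted p = 6.9e-06), while the soluble epoxide hydrolase gene Ephx2 fell to 208 ± 32.2 CPM against 456 ± 31.2 CPM. Abhd4, a phospholipid hydrolase gene, had 156, 191 and 177 CPM in senescent libraries and 31.4, 34.3 and 39.7 CPM in healthy ones (log2 fold change 2.32 ± 0.14, edgeR adjusted p = 9.6e-06), and its relative Abhd5 rose as well (log2 fold change 1.79). Dcxr, a reductase of carbonyl compounds and xylulose, had 322, 353 and 322 CPM in senescent libraries and 113, 77.8 and 74.5 CPM in healthy ones (log2 fold change 1.91 ± 0.18, edgeR adjusted p = 1.1e-04). Pltp, the plasma phospholipid transfer protein gene, had 122, 181 and 196 CPM in senescent libraries and 63.9, 88.0 and 59.5 CPM in healthy ones (log2 fold change 1.24 ± 0.21, edgeR adjusted p = 0.0026). Pltp shares 19.3% of its exonic bases with Ctsa on the opposite strand, and Ctsa had 3001 to 3469 counts in senescent and 4140 to 4457 counts in healthy libraries.

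Rrm2b, Steap3 and Slc19a2 did not pass, and their groups overlapped. Rrm2b, the small subunit of ribonucleotide reductase known as induced by p53, had 2.51, 2.74 and 3.85 CPM in senescent libraries and 1.82, 2.02 and 2.62 CPM in healthy ones (log2 fold change 0.49 ± 0.26, edgeR adjusted p = 0.16). The S phase small subunit gene Rrm2 rose to 39.1 ± 7.77 CPM in senescent libraries against 4.77 ± 1.78 CPM in healthy ones, and Rrm1, the large subunit gene, rose to 13.7 against 7.39 CPM. Steap3, an iron reductase gene, had 41.6, 37.4 and 37.9 CPM in senescent libraries and 41.4, 33.8 and 28.7 CPM in healthy ones (log2 fold change 0.17 ± 0.15, edgeR adjusted p = 0.38). Slc19a2, a thiamine carrier gene, had 131, 126 and 127 CPM in senescent libraries and 109, 143 and 126 CPM in healthy ones (log2 fold change 0.02 ± 0.12, edgeR adjusted p = 0.89). Scaled by total library size, Rrm2b and Steap3 passed (log2 fold changes 0.81 and 0.48, edgeR adjusted p = 0.038 and 0.027), on a scale where the median of all genes was 0.33.

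Of the ubiquitin ligase and nuclear body genes, 2 of 3 rose. Klhl26, a member of the kelch family of ubiquitin ligase adaptors, had 77.7, 98.9 and 92.8 CPM in senescent libraries and 8.32, 7.2 and 7.53 CPM in healthy ones (log2 fold change 3.55 ± 0.14, edgeR adjusted p = 1.1e-06). Pml, the organiser of PML nuclear bodies and also an interferon-induced gene, had 38.5, 35.6 and 39.2 CPM in senescent libraries and 20.8, 21.0 and 16.2 CPM in healthy ones (log2 fold change 0.96 ± 0.13, edgeR adjusted p = 7.6e-04). Of 12 interferon response genes in the same libraries 3 fell, Ifit3, Ifit1 and Bst2, and 9 did not pass, where 20.7% of all tested genes fell. With single libraries left out, 1 to 5 of these interferon genes fell. Fbxw7, the substrate receptor of an SCF ubiquitin ligase, had 9.54, 7.31 and 11.1 CPM in senescent libraries and 5.62, 6.89 and 7.07 CPM in healthy ones. The groups of Fbxw7 did not overlap, but its log2 fold change of 0.51 ± 0.19 missed the threshold (edgeR adjusted p = 0.056). It passed without senescent replicate 2 (0.025) and when scaled by total library size (0.011).

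Per length of exonic sequence, the order of the members differed between the groups. In RPKM, a level per exonic length, the 4 highest were Ephx1, Rps27l, Dcxr and Perp in both groups, at 754, 370.3, 291 and 216 RPKM in senescent libraries and 149, 119, 77.3 and 50.4 RPKM in healthy ones. Below them the order was not shared. Phlda3 ranked 6 in senescent libraries (80.2 RPKM) and 23 in healthy ones (0.311 RPKM), and Gtse1 ranked 10 (52.0 RPKM) and 27 (0.149 RPKM). Slc19a2 held nearly the same level in both groups, 33.4 and 32.8 RPKM, but ranked 11 in senescent and 6 in healthy libraries. At least 1 RPKM was reached by 30 of the 33 members in senescent and by 18 in healthy libraries, with medians of 18.2 and 2.38 RPKM. The exonic lengths come from GENCODE M21 and may not match the transcripts used in these cells.

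The spread between libraries of the members was narrow in the senescent group. The median coefficient of variation of the 32 tested members was 5.58% in senescent libraries, beside 11.3% over all tested genes, and 19.4% in healthy libraries, beside 15.7%. Of the strong risers, Plk2 varied by 2.08%, Phlda3 by 2.65% and Zmat3 by 2.8% among senescent libraries, and Ephx1 by 1.82%. Ckap2 and Kitl varied most, by 32.8% and 32.2%, followed by Pltp and Rrm2b at 23.6% each. Senescent replicate 1 held the lowest of the 3 senescent values for 18 of the 32 members and senescent replicate 3 the highest for 15. These figures were not tested, and members differ in abundance from the average gene.

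Among 25 further p53 targets, such as Eda2r and Mdm2, 22 rose, Sesn1 fell, and Ddb2 and Xpc did not pass, with a median log2 fold change of 3.04. Of 40 relatives of the members by family, 27 were tested, and 10 rose, 7 fell and 10 did not pass, with a median of 0.01. The relatives with the smallest p were Rap2a and Btg3 among the risen and Steap2 and Ephx2 among the fallen. Among 15 binding partners 3 rose, Osmr, Rrm1 and Pak4, and 5 fell, Efna1, Akt1, Skp1, Lifr and Rbx1, with a median of -0.17. Btg2, Plk2 and Lif are also known as fast-responding genes, and of 16 tested immediate early genes 7 rose, led by Klf6 and Egr1 (log2 fold changes 2.39 and 1.64), with a median of 0.40. Ephx1 and Dcxr belong to xenobiotic metabolism, and of 11 tested xenobiotic response genes 7 rose, led by Srxn1 and Nqo1, and Tiparp and Gclm fell. Cyp1a1 and Cyp1a2, which are some of the aryl hydrocarbon receptor targets in that list, did not pass (edgeR adjusted p = 0.19 and 0.53). They had 3.09 and 969 CPM in senescent libraries, against 5.77 and 1239 CPM in healthy ones. These genes do not stand for every target of that receptor. The part of these responses in the rises of the members was not tested. Scaling moves the small changes. With total library size 4861 of all genes rose and 1285 fell, where TMM gave 2644 and 2680, and the overall median shifted to 0.33 from 0.01 on the log2 scale. Of the relatives 12 then rose and 4 fell, of the partners 6 and 1, of the interferon genes 0 and 1, and of the xenobiotic genes 7 and 0, with the signs of the genes called under TMM unchanged.

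**Figure D5:**
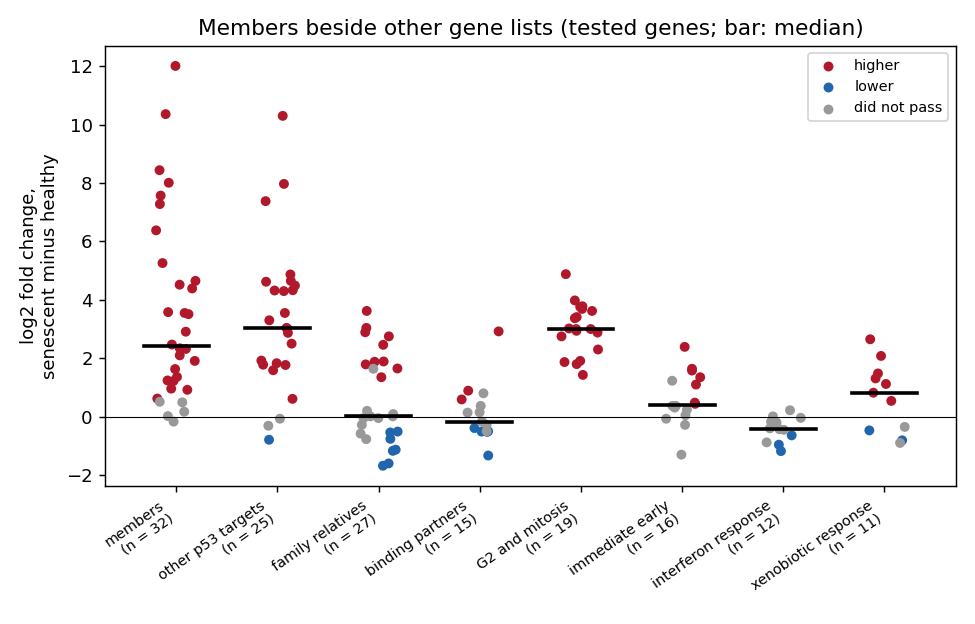
Log2 fold changes, senescent minus healthy, of the tested genes of 8 lists, each point a gene (red rose, blue fell, grey did not pass) and each bar the list's median. The medians are 2.40 for the members and 3.04 for further p53 targets, against 0.01 for family relatives and -0.17 for binding partners.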

How the data were processed

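RNA of isolated hepatocytes was measured in 6 samples, grouped by their titles. Per the labels' protocols, cells were freed with collagenase and purified by density gradient, and poly-A libraries were made from 500 ng of RNA by a directional kit with 10 PCR cycles. The authors deposited raw read counts per gene. The submitters' processing notes name FastQC, MultiQC 1.3, cutadapt 1.16, STAR 2.7.1a, featureCounts, DESeq2 1.34.0 and the build GRCm38; they give no annotation, strand setting or filter. Of the columns, 5 bear a sample's exact code, and the sixth, which differs from its code in a letter, was taken as healthy replicate 2.

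Symbols were found for 99.7% of IDs, and lengths and coordinates come from GENCODE M21 (GRCm38). Counts were tested with edgeR 4.0.16 (R 4.3.3; filterByExpr with a minimum count of 10 and a minimum total of 15, TMM, no covariate), and DESeq2 1.42.0 and limma 3.58.1 (voom) were alternatives. The procedure was tested on simulated data. The floor of 3 counts corresponds to 0.0837 to 0.117 CPM, depending on the library. An exact permutation test of 3 against 3 samples cannot go below p = 0.1 and was not used. Every member is accounted for by name, with each library's value for the 4 smallest p per role and for those that did not pass. From the other lists the 2 risen and 2 fallen genes with the smallest p were named, besides relatives and partners of members. Members and lists were chosen with earlier results of these data known.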

Additional observations from a re-analysis of the deposited data

How the results depend on the processing

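The 32 tested members were refitted under 15 alternatives: the tools DESeq2 and limma-voom, edgeR with RLE scaling or with total library size, no filter on low counts or a mean of at least 1 CPM, the 50 most abundant genes removed, a stricter adjusted p of 0.01, a block for replicate number, and each library left out. Of the 480 resulting values, 468 kept their direction and side of the threshold. Between 26 and 30 members rose, and 0 fell in any of them. The call of Kitl was also lost at an adjusted p under 0.01. The signs that turned were those of members that had not passed: Plk3 at 0.15 with total library size and 0.31 without healthy replicate 2, and Slc19a2 at -0.07 without healthy replicate 1. Over single libraries left out, Plk3 ranged from -0.41 to 0.31 and Slc19a2 from -0.07 to 0.12. Fitted log2 fold changes of members with few healthy counts moved most: Lif was 8.68 by limma-voom and 6.95 without healthy replicate 1, and Inka2 was 11.31 by limma-voom and 14.04 without healthy replicate 3.

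The members' median log2 fold change was 2.71 with total library size, where all genes had 0.33, and 2.36 to 2.56 with single libraries left out. Leaving out single libraries gave 26 to 28 risen members, 1836 to 2691 risen genes in all and 1489 to 2789 fallen ones. Scaled by total size, 4861 genes rose and 1285 fell, against 2644 and 2680 under TMM. At the stricter p the numbers were 1570.0 and 1498. Macrophage markers risen were 2 of 12 in edgeR, 6 by DESeq2, 10 with total library size and 0 without senescent replicate 3. With the replicate block 26 members rose, Kitl losing its call (edgeR adjusted p = 0.073), and 2576 genes rose and 2625 fell in all. Deviations of same-numbered libraries correlated at 0.228, -0.174 and -0.0434 across genes, and those of different-numbered ones at -0.329 to 0.38. With 3 libraries per group these values cannot decide whether the numbers pair the samples. The filter on low counts kept Ptprv, with 4 counts in each group, out of the test.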
